A study of Mus musculus with 13 samples.

Results

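Mice with the P195A allele of Adar opposite a null allele (P195A/-) were set against mice with the same allele opposite a wild-type allele (P195A/+). By these short labels both groups carry 1 copy of P195A, and the groups differ in what stands on the other chromosome. The members were chosen by their genotype labels and are 6 of the 13 whole-brain RNA libraries of the series, 3 of P195A/- and 3 of P195A/+, each library from 1 mouse. All animals were labelled as the C57BL/6 strain. P195A/- animals were 42 days old at collection and P195A/+ animals 43 days, and both groups held 2 females and, as replicate 3, 1 male. Age at collection thus differs between the groups throughout, and in RNA and editing it cannot be told apart from genotype. A longer label of the P195A/- animals writes P195A before and after the slash and then AdarKO/+, and the labels do not say how this and the short form go together. The longer label of P195A/+ animals matches the short one. Wild-type libraries of the same series (n = 3, from animals 48, 48 and 74 days old) are quoted beside some values for their level only. No test compares them with either group, but the gene test takes its filter, scaling and spread from all 13 libraries. With 3 against 3 animals an exact two-sided permutation test cannot give a p under 0.1.

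Adar encodes ADAR1, an enzyme that turns adenosine into inosine within double-stranded RNA, and inosine is read as guanosine in sequencing. Editing of the animal's own double-stranded RNA keeps the cytoplasmic sensor MDA5 (Ifih1) from treating it as viral, and loss of ADAR1 is known to set off an interferon response, in which secreted interferon acts through its receptor to switch on a large set of antiviral genes. The long isoform of ADAR1 is itself induced by interferon and carries a Z-nucleic acid binding domain, in which P195A lies. P195A is the mouse counterpart of the commonest human disease variant of that domain. In the brain most editing sites lie in introns and 3′ UTRs, while a small number of coding sites, chiefly the work of the related enzyme ADAR2 (Adarb1), change proteins such as glutamate receptor subunits.

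Gene counts totalled 15591470 to 18359307 in P195A/- libraries and 18540118 to 21272435 in P195A/+ libraries. Mitochondrial genes took 0.687, 0.76 and 1.57% of the counts in P195A/- replicates 1, 2 and 3, against 0.539 to 0.603% in P195A/+ libraries, so P195A/- replicate 3 stood apart. Values below are CPM, counts brought to the same total in every library with TMM scaling, and CPM does not correct for gene length, so levels are compared within a gene only. A gene passed at an adjusted p under 0.05 in edgeR's quasi-likelihood test with Benjamini-Hochberg adjustment over 19962 genes. In whole brain, fewer cells of a type and less RNA per cell cannot be told apart.

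Adar RNA was lower in P195A/- brains, without passing the test. Adar (ENSMUSG00000027951.17, chr3:89715022-89753446, plus strand, GRCm38) had 196.3, 203.8 and 203.7 CPM in P195A/- libraries and 242.3, 244.9 and 232.3 CPM in P195A/+ libraries. The groups did not overlap. The log2 fold change was -0.25 (SE 0.0814, edgeR adjusted p = 0.256), and wild-type libraries averaged 180.1 ± 13.3 CPM (SD, n = 3). The table gives 1 value per gene, so the long and short isoforms of ADAR1 and the RNA of a null allele cannot be told apart in it. Adarb1, which encodes ADAR2, averaged 304.9 ± 7.21 CPM in P195A/- and 316 ± 35.6 CPM in P195A/+ (SD, n = 3 each; log2 fold change -0.05, edgeR adjusted p = 0.863), a difference smaller than the spread, whose sign turned when P195A/+ replicate 3 was left out. Adarb2, a relative with no known editing activity, averaged 49.5 ± 6.98 CPM in P195A/- and 42.1 ± 0.991 CPM in P195A/+ (log2 fold change 0.23, edgeR adjusted p = 0.578). Of 9 tested genes of the list of editing enzymes and their regulators, 0 were higher and 2 lower at an unadjusted p under 0.05. The shares among all genes were 5.11% and 6.36%. The 2 were Adar and Wwp2, a ubiquitin ligase (log2 fold change -0.36, edgeR adjusted p = 0.396).

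Of all genes, 6 passed the test, which is 0.0301% of those tested, with 4 that rose and 2 that fell in P195A/- brains. At an unadjusted p under 0.05 there were 2290 genes (11.5%), 1021 higher (5.11%) and 1269 lower (6.36%). In the gene lists below, members counted as higher or lower are those at this threshold unless stated otherwise. These shares are their background. DESeq2, which gave no adjusted p to 9295 of the genes, called 289 (72 higher and 217 lower), limma-voom called 6, and the quasi-likelihood test with no filter on low counts called 49. Without P195A/- replicate 3 the count was 3. The share lower at an unadjusted p under 0.05 was larger among abundant genes, at 1.46% below 1 CPM, 1.41% at 1 to 5 CPM, 3.39% at 5 to 20 CPM, 9.86% at 20 to 100 CPM and 18.3% above 100 CPM, while the share higher was 4.5 to 5.86% in each bin.

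The 2 genes that fell were Ccni and Capza1. Ccni encodes cyclin I, a cyclin-like protein abundant in neurons. Ccni (ENSMUSG00000063015.13, chr5:93181933-93206495, minus strand) had 295, 324.4 and 252.5 CPM in P195A/- libraries and 495.5, 439.8 and 485.9 CPM in P195A/+ libraries. Every P195A/- library lay below every P195A/+ library, and the wild-type mean was 435.9 ± 18.2 CPM (SD, n = 3). Its log2 fold change was -0.71 (SE 0.106, edgeR adjusted p = 0.019), with a range of -0.80 to -0.61 over the alternatives, in 9 of 14 of which it passed. It no longer passed when P195A/- replicate 1 or 3 or P195A/+ replicate 1 or 3 was left out, with an edgeR adjusted p of 0.126, 0.123, 0.215 and 0.188 in that order. Nor did it pass in a fit of only the 6 libraries of these groups (edgeR adjusted p = 0.0635).

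Capza1 encodes a subunit of the protein that caps actin filaments. It had 49.2, 53.4 and 50.5 CPM in P195A/- libraries and 81, 71.5 and 82.6 CPM in P195A/+ libraries (log2 fold change -0.62, SE 0.0927, edgeR adjusted p = 0.019). In wild type it averaged 55.7 ± 4.21 CPM (SD, n = 3), nearer to P195A/- than to P195A/+. It passed in 7 of 14 alternatives, and not in a fit of only the 6 libraries (edgeR adjusted p = 0.0811). Leaving out any 1 library other than P195A/+ replicate 2 raised its edgeR adjusted p above the threshold, to between 0.0565 and 0.188. The value is uncertain because reads can fall to Capza1 or to Gm3608, an annotated pseudogene at chr1:105455971-105458829. Of the 2828 different stretches of 31 bases in the Gm3608 transcript, 2517 (89%) also stand in Capza1. Gm3608 had 26.2, 28.3 and 25.5 CPM in P195A/- libraries and 0, 0.725 and 0.238 CPM in P195A/+ libraries, and 29.7 ± 1.2 CPM in wild type (SD, n = 3). Summed over both genes, the values were 75.4, 81.7 and 76 CPM in P195A/- and 81, 72.2 and 82.8 CPM in P195A/+, which overlap.

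The 4 genes that rose are annotated pseudogenes near 0 in P195A/+, and each has a closely similar gene with which it can share reads. Rps3a2 and Rps3a3 are processed copies of Rps3a1, which encodes a protein of the small ribosomal subunit, and 84.8% and 67.2% of their stretches of 31 bases also stand in Rps3a1. Summed over the libraries, Rps3a2 had 1135 counts in P195A/- and 1 count in P195A/+, a ratio of 1350 (95% exact interval 242 to 53400), and Rps3a3 had 1684 counts in P195A/- and 19 in P195A/+, a ratio of 105 (67.3 to 176). Gm3608 had 1344 counts in P195A/- and 20 in P195A/+ (ratio 79.9, 51.5 to 131). Hist1h2al, annotated as a processed histone pseudogene, had 156 counts in P195A/- and 0 in P195A/+, at least 61.8-fold higher when 3 counts over the group are taken as the floor. Of its stretches of 31 bases 79.9% also stand in Hist2h2aa2, and the sum of both was 21, 16.05 and 24.1 CPM in P195A/- and 18.6, 21.4 and 21.5 CPM in P195A/+, which overlap. Hist1h2al did not pass without P195A/- replicate 3 (edgeR adjusted p = 0.0618). These intervals and floors cover counting error only. Rps3a1 itself had 42.8, 55.2 and 73.5 CPM in P195A/- and 90.7, 101.1 and 109 CPM in P195A/+ (log2 fold change -0.81, edgeR adjusted p = 0.179). The sum of Rps3a1, Rps3a2 and Rps3a3 was 88.3, 105.7 and 143.4 CPM in P195A/- and 91.3, 101.4 and 109.1 CPM in P195A/+, and the groups overlap.

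**Figure D1:**
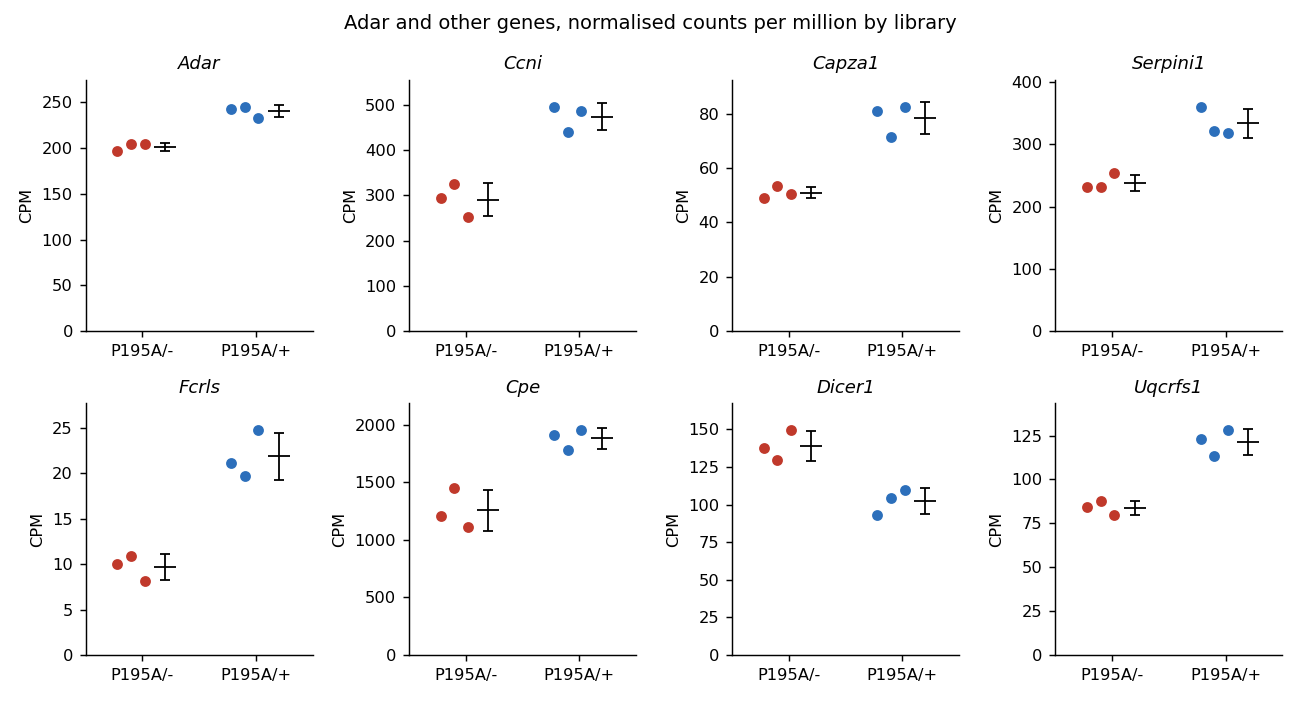
Normalised level in CPM (y axes, linear, starting at 0) of 8 genes in each library of P195A/- (red, left) and P195A/+ (blue, right). Points are libraries and bars are the mean ± SD (n = 3 each). In all 8 panels the points of the groups do not overlap, Dicer1 is the higher in P195A/- and the other 7 are lower.

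Interferon-stimulated genes were higher in P195A/- brains as a group, although no member passed the test over all genes. Of 57 tested members of a list of 69, 50 had a log2 fold change above 0, against 53.4% of all genes, and the list's median was 0.59, against 0.02 over all genes. At an unadjusted p under 0.05, 24 members were higher and 0 lower, beside 5.11% higher and 6.36% lower among all genes. In 27 members every P195A/- library lay above every P195A/+ library, an arrangement found in 8.37% of all genes, and in 0 members did the reverse hold. The list's summed level was 405, 461 and 399.4 CPM in P195A/- libraries and 304.6, 315.3 and 332.3 CPM in P195A/+ libraries. P195A/- replicate 2 was the highest of the 6.

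Most of these genes were scarce. Ifi44, an interferon-induced antiviral gene, had 2.8, 5.86 and 2.11 CPM in P195A/- libraries and 0.491, 0.725 and 0.618 CPM in P195A/+ libraries. Its log2 fold change was 2.53 (SE 0.443, edgeR adjusted p = 0.0638), the groups did not overlap, and P195A/- replicate 2 held the top value. Ifi44 and Ifit1 passed with no filter on low counts. Ifit1, which binds viral RNA lacking a host cap, had 4.605, 6.71 and 5.5 CPM in P195A/- and 1.75, 2.47 and 2 CPM in P195A/+ (log2 fold change 1.43, SE 0.297, edgeR adjusted p = 0.108). Its relative Ifit3 averaged 6.92 ± 1.07 CPM in P195A/- and 2.88 ± 0.721 CPM in P195A/+ (SD, n = 3 each). Wild-type levels of most members lay between the groups. The wild-type mean was above that of P195A/+ and below that of P195A/- in 39 of the 57 tested members, and the list summed to 349.8, 342 and 371.2 CPM in wild-type libraries. Wild-type means were 2.54 ± 0.818 CPM for Ifit1, 4.61 ± 1.31 CPM for Ifit3, 3.735 ± 2.18 CPM for Rsad2 and 2.645 ± 1.19 CPM for Ddx60 (SD, n = 3).

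Oasl2, a member of the oligoadenylate synthetase family, had 4.79, 4.03 and 2.72 CPM in P195A/- libraries and 1.365, 1.015 and 1.71 CPM in P195A/+ libraries (log2 fold change 1.49, SE 0.305, edgeR adjusted p = 0.107). Irf7, the transcription factor that amplifies interferon production, had 1.99, 2.93 and 3 CPM in P195A/- and 1.15, 0.919 and 0.476 CPM in P195A/+ (log2 fold change 1.64, edgeR adjusted p = 0.169). Neither gene overlapped between the groups. Usp18, a negative regulator of the interferon receptor, averaged 3.29 ± 1.18 CPM in P195A/- and 1.37 ± 0.67 CPM in P195A/+. Its lowest P195A/- library (2.17 CPM) and highest P195A/+ library (2.13 CPM) nearly met. Rsad2 (viperin), which makes an antiviral nucleotide, averaged 4.57 ± 1.58 CPM in P195A/- and 1.93 ± 0.636 CPM in P195A/+, while Bst2 (tetherin), which holds virus particles at the cell surface, averaged 1.54 ± 0.232 CPM in P195A/- and 0.563 ± 0.13 CPM in P195A/+.

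Rnf213, a large ubiquitin ligase, was the most abundant of the 3 members with the smallest p, at 44.5, 57.9 and 46.9 CPM in P195A/- libraries and 33.7, 32.4 and 35.4 CPM in P195A/+ libraries. Its log2 fold change was 0.56 (SE 0.109, edgeR adjusted p = 0.1), the groups did not overlap, and DESeq2 called it (DESeq2 adjusted p = 0.00116). Ifi27l2a had 45 counts in P195A/- and 4 in P195A/+ summed over the libraries, a ratio of 13.4 (95% exact interval 4.88 to 51.2). Ddx60, a helicase of the antiviral response, averaged 2.44 ± 0.76 CPM in P195A/- and 1.35 ± 0.469 CPM in P195A/+, and its groups overlapped.

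Some members did not follow. Among those tested, 7 had a log2 fold change below 0, the lowest at -0.298. Mx1 had a log2 fold change of -0.04, Cmpk2 of -0.07, Herc6 of -0.06 and Trim25 of 0.00, with edgeR adjusted p-values of 0.99, 0.893, 0.92 and 0.997 in that order. Of the 69 members, 12 were not tested, 11 of them left out by the filter on low counts. Epsti1 had 29 counts in P195A/- and 26 in P195A/+, Phf11b 4 in P195A/- and 4 in P195A/+, and Oasl1 28 in P195A/- and 14 in P195A/+, summed over the libraries. Ifi44l and Ccl5 had 0 in all 6. Among the rest, Isg15, a ubiquitin-like antiviral protein, had 12, 9 and 4 counts in P195A/- libraries and 0, 1 and 2 counts in P195A/+ libraries, a ratio of 9.91 after scaling (95% exact interval 3.02 to 51.3). Zbp1, the other Z-nucleic acid sensor of the mouse beside ADAR1, had 7, 4 and 1 counts in P195A/- libraries and 0 in each P195A/+ library, at least 4.76-fold higher against the floor of 3 counts over the group. Oas1g had 20 counts in P195A/- and 2 in P195A/+ (ratio 11.9, interval 2.89 to 105).

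The list's position did not rest on 1 library. Its median ranged over the leave-one-out fits from 0.49 without P195A/- replicate 2 to 0.73 without P195A/- replicate 3, and the number of members higher at an unadjusted p under 0.05 from 17 without P195A/- replicate 2 to 26 without P195A/- replicate 3, with 0 lower in each. By abundance, the median was 1.14 in 11 members below 1 CPM, 0.83 in 26 members of 1 to 5 CPM, 0.27 in 15 members of 5 to 20 CPM and 0.33 in 5 members of 20 to 100 CPM. Over all genes in the same bins the medians were 0.20, 0.14, 0.04 and -0.02, so scarcer genes in general had somewhat higher log2 fold changes. These bins were chosen after the data were seen.

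**Figure D2:**
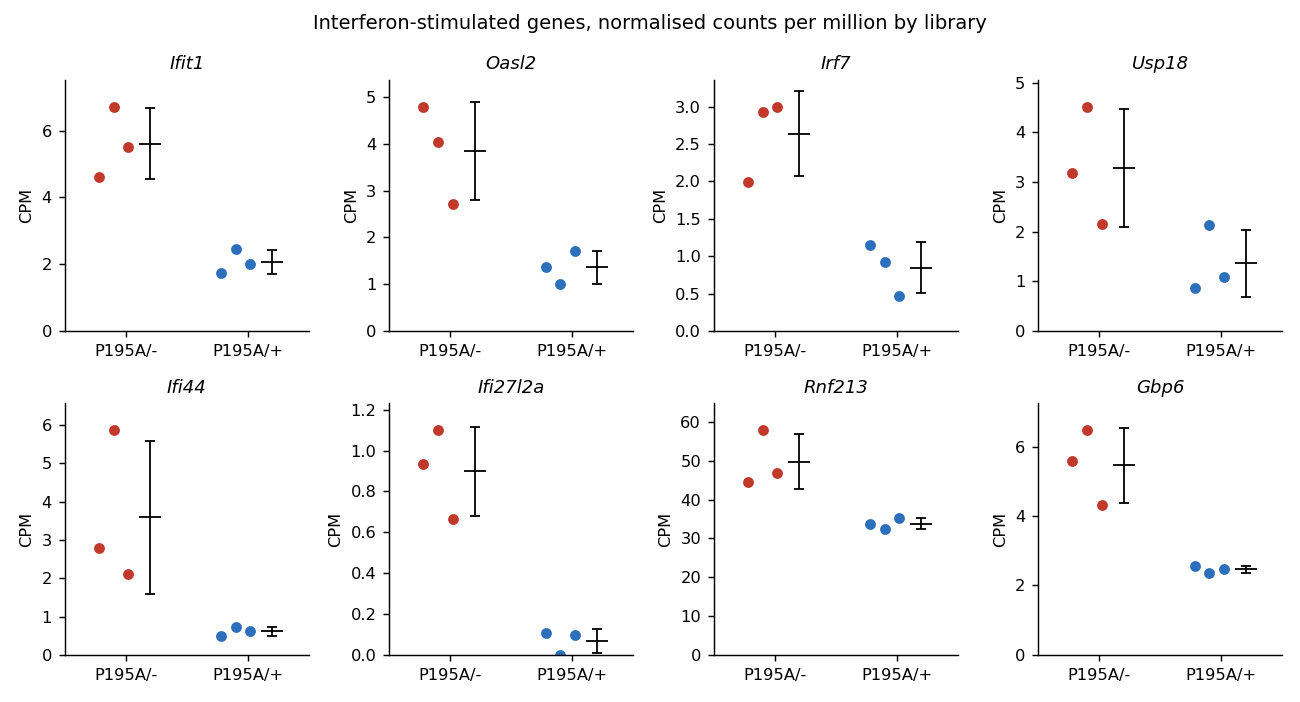
Normalised level in CPM (y axes, linear, starting at 0) of 8 interferon-stimulated genes in each library of P195A/- (red, left) and P195A/+ (blue, right). Points are libraries and bars are the mean ± SD (n = 3 each). Every P195A/- point is above every P195A/+ point in each panel, with Usp18 the closest.

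The interferon-inducible GTPases of the GBP and IRG families, which attack the vacuoles of intracellular microbes, showed the same direction. All 16 tested members of 17 had a log2 fold change above 0, with a median of 0.64, 7 were higher at an unadjusted p under 0.05, beside 5.11% of all genes, and 0 were lower. The number higher was 3 without P195A/- replicate 2, 4 without P195A/+ replicate 1 and 5 to 8 without any other library. Their summed level was 71.6, 92 and 70.1 CPM in P195A/- libraries and 49.8, 48.8 and 50.3 CPM in P195A/+ libraries, which do not overlap, and 57.8, 53.4 and 62.6 CPM in wild-type libraries. Gbp6 had 5.6, 6.47 and 4.33 CPM in P195A/- and 2.57, 2.37 and 2.47 CPM in P195A/+ (log2 fold change 1.14, SE 0.263, edgeR adjusted p = 0.126). Irgm2, which restrains the other IRG proteins on host membranes, averaged 7.11 ± 0.43 CPM in P195A/- and 4.51 ± 0.442 CPM in P195A/+ (SD, n = 3 each), and Gvin1, a very large interferon-inducible GTPase, averaged 13.3 ± 1.9 CPM in P195A/- and 7.83 ± 1.88 CPM in P195A/+. None of the 16 passed over all genes.

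Markers of immune and vascular cells had medians near 0. The 22 microglial markers summed to 362.3, 396.1 and 370.6 CPM in P195A/- libraries and 392.6, 356 and 388.3 CPM in P195A/+ libraries, and their median log2 fold change was 0.07, with 0 higher and 1 lower at an unadjusted p under 0.05. The 24 endothelial and pericyte markers had a median of -0.07 and summed to 919.3 to 956.7 CPM in P195A/- and 928.1 to 1079 CPM in P195A/+. At an unadjusted p under 0.05, 1 of the 24 was higher and 1 lower. Bsg, a surface glycoprotein of brain vessels, averaged 210.1 ± 4.99 CPM in P195A/- and 258.1 ± 17.2 CPM in P195A/+, while Cdh5, the cadherin of endothelial junctions, averaged 9.98 ± 2.2 CPM in P195A/- and 7.46 ± 1.17 CPM in P195A/+. Flt1, a receptor for vascular growth factors, averaged 68.9 ± 3.71 CPM in P195A/- and 58.2 ± 2.39 CPM in P195A/+. Blood-cell markers, of which 10 of 16 were tested, varied widely within both groups, at 321.4, 988.4 and 349.6 CPM in P195A/- and 597.1, 433.9 and 1015 CPM in P195A/+. P195A/- replicate 2, the library with the highest interferon sum, was also the highest in blood markers within its group, and P195A/+ replicate 3 was the highest of all 6. S100a8, a neutrophil gene, had 0.685, 3.78 and 1.39 CPM in P195A/- and 0.819, 1.06 and 0.951 CPM in P195A/+. Of the neutrophil markers below the filter, Ngp had 7, 8 and 5 counts in P195A/- libraries and 1 in each P195A/+ library, S100a9 had 12 counts in P195A/- and 4 in P195A/+, Camp 9 in P195A/- and 5 in P195A/+, and Retnlg 6 in P195A/- and 5 in P195A/+. Hbb-bs, a beta globin gene, had 169.4, 642.3 and 157.4 CPM in P195A/- and 398.8, 264.6 and 703.6 CPM in P195A/+. S100a8 and Hbb-bs overlapped between the groups. The part of these cells in the interferon result was not tested.

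Of 23 tested genes of double-stranded RNA sensing, 4 were higher and 1 lower at an unadjusted p under 0.05, beside 5.11% and 6.36% of all genes, with a median of 0.11. Several of them, among them Ifih1, Eif2ak2 and Dhx58, also stand in the interferon-stimulated list. Ifih1, which encodes MDA5, had 6.04, 11.8 and 6.995 CPM in P195A/- and 4.91, 4.98 and 5.47 CPM in P195A/+ (log2 fold change 0.69, edgeR adjusted p = 0.323), with P195A/- replicate 2 far above the rest. Eif2ak2, which encodes the kinase PKR, averaged 19.9 ± 3.69 CPM in P195A/- and 13.2 ± 0.688 CPM in P195A/+ (log2 fold change 0.59, edgeR adjusted p = 0.396). Dhx58, which encodes the sensor LGP2, averaged 1.03 ± 0.163 CPM in P195A/- and 0.598 ± 0.0696 CPM in P195A/+, and Mavs, the adaptor below MDA5, averaged 5.44 ± 1.2 CPM in P195A/- and 5.945 ± 1.07 CPM in P195A/+. Dicer1, which cuts double-stranded RNA into small RNAs, had 137.9, 129.3 and 149.3 CPM in P195A/- and 92.98, 104.5 and 109.5 CPM in P195A/+ (log2 fold change 0.44, SE 0.0927, edgeR adjusted p = 0.108), and Ilf2, a double-stranded RNA binding factor, averaged 75 ± 2.56 CPM in P195A/- and 87.6 ± 1.67 CPM in P195A/+. Ilf2 is the member that was lower.

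Among 18 tested genes of interferon signalling the median was 0.11. At an unadjusted p under 0.05, 4 were higher and 0 lower, beside 5.11% and 6.36% of all genes. The 4 include Irf7 and Usp18, which also stand in the interferon-stimulated list, and Irf2, a regulator of interferon genes, at 26.05 ± 7.21 CPM in P195A/- and 16.9 ± 3.04 CPM in P195A/+ (log2 fold change 0.63, edgeR adjusted p = 0.256). Antigen presentation by MHC class I, another interferon target, had a median of 0.17 over 20 tested genes. At the same threshold 2 were higher and 0 lower, beside the same shares of all genes. B2m, the light chain shared by class I molecules, had 14, 13.4 and 26 CPM in P195A/- and 11.9, 10.1 and 12.1 CPM in P195A/+ (log2 fold change 0.65, edgeR adjusted p = 0.342), with the library of high mitochondrial share at the top. H2-Q6 averaged 0.848 ± 0.573 CPM in P195A/- and 0.231 ± 0.0635 CPM in P195A/+, and H2-T23 averaged 9.87 ± 1.9 CPM in P195A/- and 7.45 ± 0.78 CPM in P195A/+. Class I genes are near-identical to one another, so their values are uncertain.

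Of 9 tested genes of the ZBP1 and necroptosis list, 0 were higher and 1 was lower at an unadjusted p under 0.05. The shares among all genes were 5.11% and 6.36%. The lower one was Tnfaip3, which encodes the ubiquitin-editing enzyme A20 that restrains inflammation (5.61 ± 0.288 CPM in P195A/- and 7.80 ± 1.61 CPM in P195A/+, log2 fold change -0.475). Cyld, a deubiquitinase, had a log2 fold change of -0.13 and Tradd, an adaptor of death receptors, of -0.56, with edgeR adjusted p-values of 0.469 and 0.493. Of 7 other genes of Aicardi-Goutières syndrome, an inherited interferon disease, Ifih1 was higher and Lsm11, a histone mRNA processing factor, was lower (59.9 ± 1.43 CPM in P195A/- and 74.4 ± 2.49 CPM in P195A/+, log2 fold change -0.31, edgeR adjusted p = 0.165), while Rnaseh2a, a subunit of the enzyme that removes ribonucleotides from DNA, overlapped between the groups (log2 fold change 0.45).

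**Figure D3:**
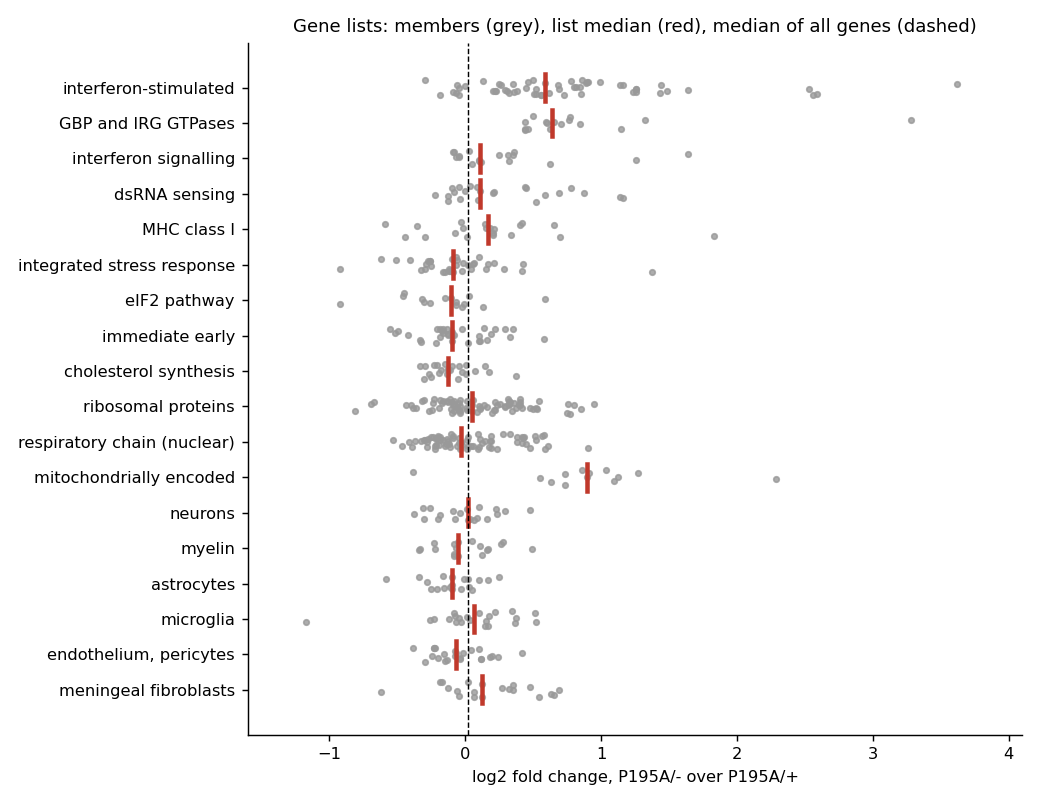
Log2 fold change of P195A/- over P195A/+ (x axis) for the tested members of 18 gene lists (rows). Grey points are genes, red bars the list medians and the dashed line the median of all 19962 genes (0.02). The interferon-stimulated list (median 0.59), the GBP and IRG list (0.64) and the mitochondrially encoded genes (0.90) stand to the right of the line, and the other medians lie between -0.12 and 0.17.

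Targets of the integrated stress response, which PKR can start by phosphorylating eIF2, were not higher. Of 36 tested members, 0 were higher and 6 lower at an unadjusted p under 0.05, beside 6.36% lower among all genes, and the median was -0.09. By abundance, 1 of 18 was lower below 20 CPM, 3 of 12 at 20 to 100 CPM and 2 of 6 above 100 CPM, beside the larger shares of abundant genes given above. Psat1, an enzyme of serine synthesis, had 126.6, 112.8 and 105.8 CPM in P195A/- and 188.6, 144.2 and 159.1 CPM in P195A/+ (log2 fold change -0.51, SE 0.133, edgeR adjusted p = 0.169). Asns, asparagine synthetase, had 83.1, 85.5 and 60.4 CPM in P195A/- and 95, 96.1 and 111.3 CPM in P195A/+ (log2 fold change -0.40, edgeR adjusted p = 0.34). Neither gene overlapped between the groups. Nars, asparaginyl-tRNA synthetase, averaged 141.9 ± 8.63 CPM in P195A/- and 173.9 ± 4.18 CPM in P195A/+. Ddit3, the factor CHOP, averaged 6.98 ± 2.18 CPM in P195A/- and 5.235 ± 0.434 CPM in P195A/+, and Trib3, a pseudokinase induced by it, averaged 0.916 ± 0.601 CPM in P195A/- and 0.782 ± 0.0671 CPM in P195A/+. Both overlapped between the groups.

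Of 15 genes of the eIF2 kinases, phosphatases and exchange factor, 1 was higher (Eif2ak2, above) and 5 were lower, with a median of -0.11. The shares among all genes at an unadjusted p under 0.05 were 5.11% and 6.36%. By abundance, 1 of 5 was lower below 20 CPM. At 20 to 100 CPM 2 of 6 were lower, beside 9.86% of all genes, and above 100 CPM 2 of 4, beside 18.3%. Ppp1r15b, a subunit that directs the phosphatase to eIF2, averaged 103.1 ± 2.04 CPM in P195A/- and 123.2 ± 5.61 CPM in P195A/+ (log2 fold change -0.26, edgeR adjusted p = 0.221). Eif2b4 and Eif2b5, subunits of the exchange factor, had log2 fold changes of -0.45 and -0.32.

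Mitochondrially encoded RNA was higher in P195A/-, and 1 library carried much of the difference. Of 13 genes, 8 were higher and 1 lower at an unadjusted p under 0.05, beside 5.11% and 6.36% of all genes. The median was 0.90, and 0.31 without P195A/- replicate 3. The summed level was 6284, 7105 and 14830 CPM in P195A/- and 5067, 5309 and 5757 CPM in P195A/+. mt-Co3, a subunit of cytochrome c oxidase, had 157.1, 210.9 and 601.8 CPM in P195A/- and 51.5, 55.6 and 91.4 CPM in P195A/+ (log2 fold change 2.29, edgeR adjusted p = 0.208). mt-Nd4, a subunit of complex I, had 469.7, 503.7 and 1404 CPM in P195A/- and 309.2, 313.5 and 360 CPM in P195A/+. mt-Nd6, the complex I subunit read from the other strand of the mitochondrial genome, was the member that was lower, at 175.4, 179.5 and 171.5 CPM in P195A/- and 242.1, 232.4 and 212.5 CPM in P195A/+ (log2 fold change -0.38, SE 0.0971, edgeR adjusted p = 0.165).

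Nuclear genes of the respiratory chain had a median of -0.03 over 74 members. At an unadjusted p under 0.05, 4 were higher and 11 lower, beside 5.11% and 6.36% of all genes. The 11 were 5 of 33 members at 20 to 100 CPM, beside 9.86% of all genes, and 6 of 11 above 100 CPM, beside 18.3%, while the 4 were among 30 members below 20 CPM. Uqcrfs1, the Rieske iron-sulphur subunit of complex III, had 84.2, 87.8 and 79.8 CPM in P195A/- and 123, 113.5 and 128 CPM in P195A/+ (log2 fold change -0.53, SE 0.105, edgeR adjusted p = 0.1). Ndufb6 and Ndufa12, subunits of complex I, went opposite ways, with log2 fold changes of -0.46 and 0.91 (edgeR adjusted p = 0.169 and 0.198). Ribosomal protein genes had a median of 0.05 over 79 members, with 5 higher and 7 lower. Rps4x, of the small subunit, averaged 146.5 ± 13.1 CPM in P195A/- and 193.2 ± 3.91 CPM in P195A/+. Genes of cholesterol synthesis had a median of -0.12 over 24 members, with 1 higher and 4 lower, beside 5.11% and 6.36% of all genes. The 4 were 2 of 11 members at 20 to 100 CPM and 2 of 6 above 100 CPM, beside 9.86% and 18.3% of all genes. Stard4, a sterol carrier, averaged 57.5 ± 0.957 CPM in P195A/- and 72.6 ± 4.91 CPM in P195A/+, and Msmo1, a sterol oxidase, averaged 87.3 ± 4.47 CPM in P195A/- and 107.8 ± 13.2 CPM in P195A/+. Sc5d, a desaturase of the same pathway, was the member that was higher (96.1 ± 20.7 CPM in P195A/- and 74 ± 7.52 CPM in P195A/+).

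No member of the lists of neuronal activity genes and stress hormone targets passed the test. Of 33 immediate early genes 1 was higher and 5 were lower at an unadjusted p under 0.05, with a median of -0.10. The shares among all genes were 5.11% and 6.36%. By abundance, 2 of 13 were lower below 20 CPM, beside 1.41 to 3.39% of all genes in the bins of that range. At 20 to 100 CPM 3 of 17 were lower, beside 9.86%, and above 100 CPM 0 of 3, beside 18.3%. Fos averaged 20.5 ± 0.293 CPM in P195A/- and 23.4 ± 4.08 CPM in P195A/+, and Btg2, Dusp6 and Egr2, other genes switched on by neuronal activity, had log2 fold changes of -0.49, -0.33 and -0.515 (edgeR adjusted p = 0.298, 0.363 and 0.396). Of 23 glucocorticoid targets 0 were higher and 0 lower, with a median of 0.03. Fkbp5, a chaperone of the glucocorticoid receptor, averaged 31.2 ± 4.69 CPM in P195A/- and 25.7 ± 6.27 CPM in P195A/+, Sgk1, a kinase, averaged 135.6 ± 20.8 CPM in P195A/- and 113.1 ± 9.01 CPM in P195A/+, and Zbtb16, a zinc finger factor, averaged 71.5 ± 15.4 CPM in P195A/- and 56.1 ± 14 CPM in P195A/+. Mt1, a metallothionein, had 39.2 CPM in P195A/- replicate 3 and 10.4 to 15.6 CPM in the other libraries.

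The label of whole brain was matched by its defining cell markers, which were present in every library. The 20 neuronal markers summed to 7859 to 8948 CPM in P195A/- and 7955 to 8597 CPM in P195A/+, with a median log2 fold change of 0.02, 0 higher and 3 lower. The 3 that were lower were Slc17a7, the vesicular glutamate transporter of cortical neurons (621.4 ± 75.3 CPM in P195A/- and 767.1 ± 15 CPM in P195A/+), Gad1, an enzyme that makes GABA (419.1 ± 18.7 CPM in P195A/- and 481.4 ± 29.1 CPM in P195A/+), and the calcium-binding protein Calb2. Of 19 astrocyte markers 0 were higher and 5 lower (all 5 among the 13 above 100 CPM, where 18.3% of all genes were lower), with a median of -0.10 and summed levels of 10410, 11500 and 10930 CPM in P195A/- and 12380, 11900 and 13000 CPM in P195A/+, which do not overlap. Cpe, carboxypeptidase E of the secretory pathway, which neurons also express, had 1204, 1453 and 1112 CPM in P195A/- and 1907, 1781 and 1949 CPM in P195A/+ (log2 fold change -0.58, SE 0.121, edgeR adjusted p = 0.108). S100b and Mlc1 had log2 fold changes of -0.34 and -0.25. Gfap, the marker of reactive astrocytes, averaged 145.3 ± 17.2 CPM in P195A/- and 163 ± 18.4 CPM in P195A/+, and Aqp4 had a log2 fold change of -0.01, with a sign that turned under several alternatives.

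Among microglial markers, Fcrls, a receptor-like gene of resident microglia in the mouse, stood apart. It had 10, 10.9 and 8.16 CPM in P195A/- and 21.2, 19.7 and 24.7 CPM in P195A/+ (log2 fold change -1.17, SE 0.233, edgeR adjusted p = 0.1), and DESeq2 called it (DESeq2 adjusted p = 0.000835). The other markers of these cells did not share the difference. Cx3cr1 averaged 35.6 ± 5.17 CPM in P195A/- and 35.2 ± 5.02 CPM in P195A/+, and P2ry12 averaged 19 ± 3.92 CPM in P195A/- and 15 ± 2.84 CPM in P195A/+, while the complement gene C1qc had a log2 fold change of 0.365. Fcrls lies at chr3:87250758-87263738, on the chromosome of Adar.

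Myelin genes had a median of -0.05 over 18 members, with 1 higher (Myrf, the factor that drives myelin genes) and 1 lower (Mog, a protein of the outer myelin surface, log2 fold change -0.34). Mbp averaged 1968 ± 170 CPM in P195A/- and 1749 ± 221 CPM in P195A/+, and Opalin 14.4 ± 1.62 CPM in P195A/- and 16.9 ± 0.72 CPM in P195A/+. Mal, a myelin lipid raft gene, had a log2 fold change of -0.22. Oligodendrocyte precursor markers had a median of 0.01 over 15 members with 3 higher and 2 lower, among them Itpr2, Tnr and Bcas1 at log2 fold changes of 0.41, 0.24 and -0.26. Meningeal fibroblast markers had a median of 0.12 over 20 members with 3 higher and 1 lower. Col6a1 and Col6a2, collagen chains, had log2 fold changes of 0.545 and 0.63, and Slc6a13, a GABA transporter of the meninges, of -0.62. Cldn5, a tight junction protein of vessels, averaged 18.7 ± 2.19 CPM in P195A/- and 22.15 ± 1.47 CPM in P195A/+, and Dcx, a marker of young neurons, averaged 64.9 ± 6.69 CPM in P195A/- and 59.6 ± 4.35 CPM in P195A/+. Choroid plexus markers had a median of -0.02 over 16 members, with Ttr, the transthyretin gene of that tissue, at 275.6 ± 37.6 CPM in P195A/- and 318.4 ± 29.9 CPM in P195A/+, and Kcnj13 and Otx2 at log2 fold changes of 0.305 and 0.29. Gh, the growth hormone gene of the pituitary, had 0.187, 48.7 and 7.22 CPM in P195A/- and 7.1, 0.725 and 769.4 CPM in P195A/+, so pituitary RNA was present unevenly, most of all in P195A/+ replicate 3. The 18 tested pituitary and hypothalamic markers had a median of -0.24, with 0 higher and 0 lower, and the peptide genes Sst and Crh had log2 fold changes of 0.475 and -0.47. In the 20 olfactory bulb markers the median was -0.01, with 1 higher and 1 lower. Synpr, a synaptic vesicle gene, had a log2 fold change of -0.17, and Ms4a15 had 0.498, 0.061 and 0.0555 CPM in P195A/- and 0 in each P195A/+ library. In the 24 markers of neuroblasts and progenitors the median was 0.06, with 1 higher and 0 lower. The higher one, Dlx2, a transcription factor of interneuron precursors, averaged 0.986 ± 0.157 CPM in P195A/- and 0.474 ± 0.163 CPM in P195A/+ (log2 fold change 1.06, edgeR adjusted p = 0.328), and Cd24a and Sp9 had log2 fold changes of 0.35 and 0.49.

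Several genes with a small p lie on chromosome 3 with Adar. Of those described above, Capza1 (chr3:104822779-104864505), Rps3a1 (chr3:86137940-86142702) and Ifi44 (chr3:151730922-151749960) lie there. Rbm8a, described below, does so too. Gm3608, Rps3a2 and Rps3a3, which share stretches with Capza1 or Rps3a1, lie on chromosomes 1, 14 and 13. The part of position in these differences was not tested. Serpini1, which encodes neuroserpin, an inhibitor of tissue plasminogen activator in neurons, had 230.7, 231.1 and 253.2 CPM in P195A/- and 360.2, 321.3 and 318.6 CPM in P195A/+ (log2 fold change -0.48, SE 0.0966, edgeR adjusted p = 0.1). Its wild-type mean was 362.6 ± 18 CPM. Chrnb2, a nicotinic receptor subunit gene whose annotated span meets that of Adar at chr3:89746195-89764632 on the opposite strand, had 88.3, 79.65 and 94.4 CPM in P195A/- and 128.4, 116.4 and 130.5 CPM in P195A/+ (log2 fold change -0.52, SE 0.128, edgeR adjusted p = 0.165). Chrnb2 averaged 86.3 ± 1.82 CPM in wild type, near the P195A/- mean of 87.4 ± 7.4 CPM and below P195A/+. Reads from overlapping genes cannot be told apart unless the counting used strand (not given in the sources used here). Among 29 tested neighbours of Adar, with a median of -0.07, 1 was higher and 5 lower at an unadjusted p under 0.05. The shares among all genes were 5.11% and 6.36%. The libraries did not overlap in 13 neighbours (6 higher and 7 lower), beside 8.37% higher and 9.74% lower without overlap among all genes. The gene 4933434E20Rik, named after its values were seen, averaged 70.4 ± 2.63 CPM in P195A/- and 92.1 ± 5.64 CPM in P195A/+ (log2 fold change -0.39, edgeR adjusted p = 0.258). In wild type it averaged 56.9 ± 1.29 CPM, below both groups. Some neighbours had lower levels in wild type than in both groups, among them Ube2q1 (104.5 ± 0.993 CPM in P195A/-, 95.9 ± 3.66 in P195A/+ and 58 ± 2.25 in wild type) and Tpm3 (95.4 ± 4.95 CPM in P195A/-, 89.9 ± 4.33 in P195A/+ and 57 ± 4.71 in wild type). Ubap2l and Atp8b2 had log2 fold changes of 0.18 and -0.11. The share of tested genes at an unadjusted p under 0.05 was 13.3% within 10 Mb of Adar (285 genes), beside 10.9% on the rest of chromosome 3 (836 genes) and 11.5% on other chromosomes (18778 genes).

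The promoters of the interferon-stimulated genes were read to show the sequence that the interferon-activated factors bind. The core of the interferon-stimulated response element, searched on either strand as GAAA and GAAA with any 2 bases between them, occurred in the promoter (250 bases before to 50 after the start, RefSeq, GRCm38.p6) of 26 of 50 listed genes with a promoter in the table (52%), in 9 of 10 GBP and IRG genes (90%) and in 3.99% of all 27025 genes. The letters of the interferon-gamma activated site, TTC and GAA with any 3 bases between them, occurred in 14% of the 50, 60% of the 10 and 9.55% of all genes. Among tested genes at an unadjusted p under 0.05 the response element stood in 5.96% of those higher and 3.14% of those lower. A match is a description of the letters and not evidence of binding. Windows from 5 genes described above are printed 5′ to 3′ on the gene's strand to show the element, with its letters or their reverse complement in capitals, from chr19:34640796-34640821 (plus), chr19:34583399-34583424 (plus), chr12:26456555-26456580 (minus), chr4:156200867-156200892 (minus) and chr8:71537579-71537604 (minus).
Ifit1: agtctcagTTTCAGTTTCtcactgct
Ifit3: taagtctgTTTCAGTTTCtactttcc
Rsad2: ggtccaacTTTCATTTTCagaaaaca
Isg15: aggaaaccGAAACAGAAAatagctct
Bst2: aggaaaatGAAACTGAAAggctgcag

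The mean editing level was lower in P195A/- brains than in P195A/+ brains. The level of a site is the share of its A plus G reads that are G, and 13915 sites had at least 10 such reads in each of the 6 libraries and a pooled level of 1 to 99%. The mean level over these sites was 16.4, 15.9 and 17.1% in P195A/- libraries and 17.8, 17.1 and 17.9% in P195A/+ libraries. The highest P195A/- library lay just below the lowest P195A/+ library. The difference was -1.13 percentage points (16.5 ± 0.575% in P195A/- and 17.6 ± 0.429% in P195A/+, SD, n = 3 each), with an exact two-sided permutation p of 0.1, the smallest that 3 against 3 allows. Wild-type libraries had 15.6, 15.2 and 16.5% at the same sites, below P195A/+ and overlapping P195A/-. Reads with C or T, which editing does not give, made up 0.0107 to 0.0215% of the reads in the 6 libraries, so this background is far below the levels described.

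No single site passed an adjusted p under 0.05 in edgeR's quasi-likelihood test on edited and unedited reads (0 of 13915, 0%), with 742 sites at an unadjusted p under 0.05 (5.33%), 230 higher (1.65%) and 512 lower (3.68%). Limma on the log2 odds also called 0 sites. The log2 odds ratio was below 0 at 56.8% of sites, and every P195A/- library lay below every P195A/+ library at 6.87% of sites, against 3.63% for the reverse. The median depth was 21 to 26 reads per site in P195A/- libraries and 21 to 31 in P195A/+ libraries, which limits what could be seen at most sites. Among sites with at least 20 reads in each library 3 passed, in Ccni, Gnl3l and Gm26917. By level, the difference of the mean was -0.24 percentage points at sites up to 5%, -1.4 at 10 to 20%, -2.62 at 40 to 60% and -0.74 at 80 to 100%.

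The direction was shared by the region classes. In 3′ UTRs (1962 sites) the mean level was 14.1, 14.5 and 14.3% in P195A/- and 15.6, 15.4 and 15.8% in P195A/+, a difference of -1.32 points, beside SDs of 0.181 in P195A/- and 0.187 in P195A/+ (n = 3 each). In introns (10107 sites) it was 16.5, 15.85 and 17.3% in P195A/- and 17.9, 17 and 17.9% in P195A/+, where the groups overlapped. In coding sequence (140 sites) the means were 19 ± 1.02% in P195A/- and 20.3 ± 0.649% in P195A/+, and in noncoding exons (923 sites) 16.8 ± 0.288% in P195A/- and 17.95 ± 0.211% in P195A/+. The coding sites lie in 52 genes, and many of them stand close together in Zfp397 and in Son. The exact two-sided permutation p was 0.1 for 3′ UTRs and noncoding exons, 0.2 for introns and 0.3 for coding sequence, and no class was under 0.2 after adjustment over the 12 classes compared. Sites with another tested site within 50 bases, which mark the long double-stranded stretches that ADAR1 is known to edit, differed by -1.02 points (17.2 ± 0.633% in P195A/- and 18.25 ± 0.426% in P195A/+), and isolated sites by -1.6 points (13.3 ± 0.489% in P195A/- and 14.9 ± 0.447% in P195A/+). The difference between the classes was not tested.

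**Figure D4:**
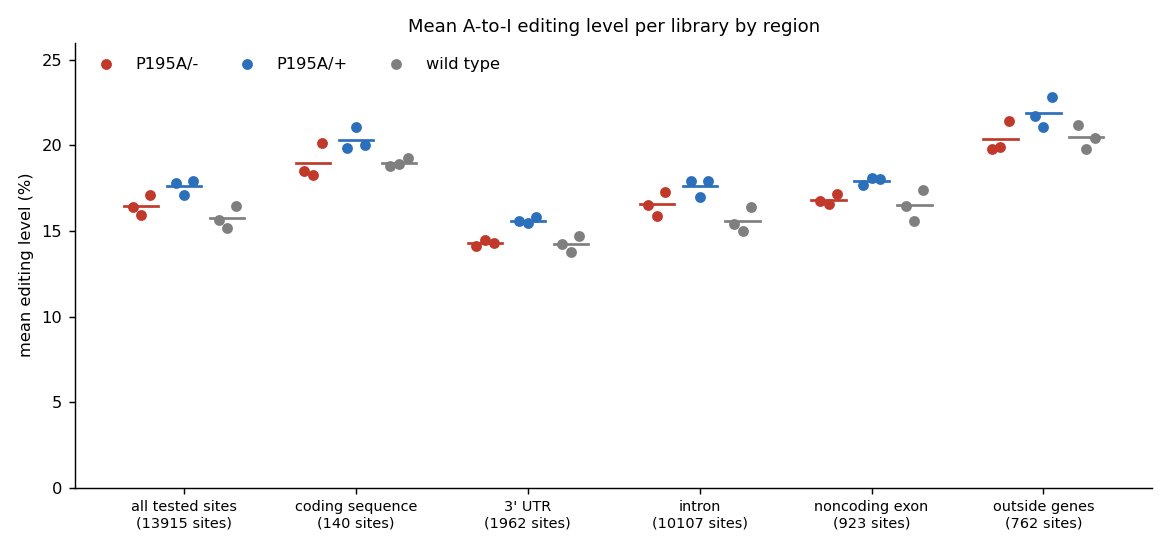
Mean editing level per library (y axis, percent, linear from 0) over the tested sites of each region class (x axis), for P195A/- (red), P195A/+ (blue) and wild type (grey, for its level only). Points are libraries and short lines the group means (n = 3 each). P195A/- means lie 1.06 to 1.5 percentage points below P195A/+ in the 6 classes shown, and the libraries do not overlap over all sites, in 3′ UTRs and in noncoding exons.

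Of the 10 sites with the smallest p, the 6 in exons are shown with 10 bases on either side from the GENCODE transcript, the edited A in capitals, to show the sequence around them. The windows lie at chr5:93189574-93189594 (minus), chrX:150984608-150984628 (minus), chr17:39845496-39845516 (plus), chr11:75177461-75177481 (minus), chr10:81030429-81030449 (minus) and chr1:11597042-11597062 (plus) in GRCm38. The first lies in coding sequence, the Gm26917 window in a noncoding exon and the other 4 in 3′ UTRs. The 4 sites of introns and of no annotated gene are described below without sequence.
Ccni: tcttttggatAggtttttagc
Gnl3l: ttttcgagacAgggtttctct
Gm26917: gcccgagttcAcggtgggttc
Ovca2: ctacctgctgAgccatgtcac
Slc39a3: cagagggcatAgcagtgagac
A830018L16Rik: acctgcctctActtcctaagt

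The coding site in Ccni, the gene whose RNA fell, was edited at 0.713, 1.95 and 2.05% in P195A/- libraries (561, 666 and 682 reads) and at 4.16, 2.94 and 4.28% in P195A/+ libraries (961, 1055 and 1099 reads). The groups did not overlap, and wild-type libraries had 2.38 to 2.55%. The log2 odds ratio was -1.23 (SE 0.259, edgeR adjusted p = 0.0644). The 3′ UTR site in Gnl3l, which encodes a nucleolar GTPase, was edited at 51.3, 51.45 and 50.4% in P195A/- (353 to 414 reads) and at 65.5, 66.3 and 68% in P195A/+ (599 to 659 reads). Its difference of -15.5 percentage points (log2 odds ratio -0.93, SE 0.22, edgeR adjusted p = 0.164) compares with SDs of 0.561 in P195A/- and 1.28 in P195A/+ (n = 3 each), and wild-type libraries had 52.1 to 58.4%. Gnl3l RNA differed little (log2 fold change -0.11, edgeR adjusted p = 0.609).

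The site in Ovca2 was edited at 2.22, 0 and 3.7% in P195A/- and 27.3, 16.1 and 7.81% in P195A/+, over 27 to 64 reads. The site in Slc39a3, a zinc transporter gene, was edited at 3.85, 1.79 and 2.53% in P195A/- and 14.8, 14.8 and 7.53% in P195A/+. A site in the noncoding RNA Gm26917 (chr17:39845506-39845506) was edited at 3.63, 3.1 and 4.27% in P195A/- and 6.03, 5.63 and 5.235% in P195A/+, with depth at the cap of 3000 reads. Of the 10 sites with the smallest p, 9 were lower in P195A/-. The exception lay outside annotated genes on chromosome 5 and was edited at 92.3, 95.2 and 100% in P195A/- and 61.1, 73.5 and 76.7% in P195A/+, over 21 to 43 reads. The remaining 4 lay in introns of Magi2, Kcnip4 and Gm20388 and in the 3′ UTR of A830018L16Rik, with 10 to 122 reads per library. The Kcnip4 site was at 0% in the 3 P195A/- libraries and 0, 5.74 and 6.78% in P195A/+, so these groups met at 0.

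Coding sites in genes known for editing that changes the protein mostly overlapped between the groups. Of 20 such genes 19 had a tested coding site. The site with the most reads overlapped between the groups in 16 of them, was lower without overlap in 2 and higher without overlap in 1. These sites were taken by read depth, and whether each one changes the protein was not determined here. The log2 odds ratio was below 0 in 12 of the 19. With the most edited coding site of each gene in place of the most read one, a choice made after the data were seen, the groups overlapped in 14 genes, 4 were lower without overlap (Gabra3, Flna, Gria2 and Cog3) and 1 was higher (Copa), with the log2 odds ratio below 0 in 13. Gabra3, a GABA receptor subunit gene, was edited at 94.2, 89.5 and 93.55% in P195A/- and 94.6, 96.6 and 98.3% in P195A/+ (log2 odds ratio -1.15, SE 0.437, edgeR adjusted p = 0.815). Flna, which encodes the actin crosslinker filamin A, was edited at 44.7, 53.3 and 54.2% in P195A/- and 54.8, 68.2 and 72.4% in P195A/+, over 24 to 44 reads. Copa, a coatomer subunit gene, was edited at 6.63, 9.74 and 5.98% in P195A/- and 5.36, 4.03 and 5.86% in P195A/+.

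Kcna1, a potassium channel gene, was edited at 41.4 ± 4.55% in P195A/- and 47 ± 2.29% in P195A/+ (SD, n = 3 each), and its groups overlapped. Sites with high levels included Gria4 (66.8 ± 2.71% in P195A/- and 67.4 ± 14.2% in P195A/+), a glutamate receptor subunit gene, and Htr2c (63.6 ± 4.53% in P195A/- and 61.2 ± 7.9% in P195A/+), a serotonin receptor gene. Tmem63b, an ion channel gene, had 64.6 ± 1.65% in P195A/- and 65.3 ± 5.13% in P195A/+, and Unc80, a subunit gene of a sodium leak channel, had 55.7 ± 4.42% in P195A/- and 57.2 ± 3.66% in P195A/+. Grik1, a kainate receptor subunit gene, had 60.1 ± 18.4% in P195A/- and 59.5 ± 11.1% in P195A/+. Cadps, a gene of vesicle priming, had 20.5 ± 1.74% in P195A/- and 20.8 ± 2.47% in P195A/+, Cacna1d, a calcium channel gene, 29.7 ± 7.06% in P195A/- and 33.9 ± 10.3% in P195A/+, and Blcap 22.8 ± 9.98% in P195A/- and 30.1 ± 7.89% in P195A/+. The most-read coding sites of Gria2, Gria3, Grik2, Cyfip2, Azin1, Cog3 and Neil1 averaged 1.31 to 6.67% in P195A/- and 1.09 to 4.15% in P195A/+. For Gria2, Gria3, Grik2, Cyfip2 and Cog3 another coding site was far more edited than the most-read one. These sites were at 69.1, 69 and 67.8% in P195A/- and 72.2, 69.95 and 72.3% in P195A/+ for Gria2, at 92.5, 93.5 and 91.6% in P195A/- and 91.4, 92.2 and 91.15% in P195A/+ for Gria3, and at 80.6, 78.1 and 79.5% in P195A/- and 72.8, 79.7 and 79.75% in P195A/+ for Cyfip2. The Grik2 site was at 84.3, 87.95 and 88% in P195A/- and 89.7, 87.85 and 87.7% in P195A/+. The Cog3 site was at 21.15, 17.8 and 16.7% in P195A/- and 37.7, 24.3 and 23.8% in P195A/+ over 45 to 74 reads (log2 odds ratio -0.77, SE 0.464, edgeR adjusted p = 0.963). At the Gria2 and Cog3 sites every P195A/- library lay below every P195A/+ library, and the other 3 overlapped.

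Pooling reads over the tested 3′ UTR sites of a gene, a step chosen after the data were seen, gave the level by gene in 122 genes with at least 5 such sites. The mean level was lower in P195A/- in 93 of them, and the median difference was -1.19 percentage points. Every P195A/- library lay below every P195A/+ library in 23 genes (18.9%), and every P195A/- library above every P195A/+ library in 2 genes (1.64%), Cdk7 and Atp6v0e. Sites of a gene share reads and a double-stranded structure, so they are not independent.

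Gnl3l was the most read of the 23, at 15.9, 18 and 16.2% over 20 sites in P195A/- and 19.1, 19.5 and 19.8% in P195A/+. Dlg4, the postsynaptic scaffold gene also known as PSD-95, was at 14.4, 15.4 and 14.8% over 38 sites in P195A/- and 17.7, 16.7 and 18.6% in P195A/+. Nudt21, a gene of polyadenylation site choice, was at 9.56, 12.2 and 11.4% in P195A/- and 14.6, 12.9 and 14.7% in P195A/+. These 3 genes had RNA log2 fold changes of -0.11, 0.05 and -0.09. Psma3, a proteasome subunit gene, was at 24, 23.1 and 20.1% in P195A/- and 24.2, 25.3 and 24.6% in P195A/+, and Rbm8a, a core subunit gene of the exon junction complex, was at 20.9, 19.8 and 14.6% in P195A/- and 24.2, 23.4 and 22% in P195A/+. Rbm8a RNA was itself lower, at 22.5, 23.9 and 24.65 CPM in P195A/- and 35.65, 36.3 and 35.05 CPM in P195A/+ (log2 fold change -0.59, SE 0.103, edgeR adjusted p = 0.0638). Cdk7, a cell cycle and transcription kinase gene and 1 of the 2 exceptions, was at 13.4, 15.9 and 16.8% in P195A/- and 13.3, 10.4 and 10.6% in P195A/+. Gnl3l, Dlg4, Nudt21, Psma3 and Rbm8a were chosen for display after their values were seen.

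**Figure D5:**
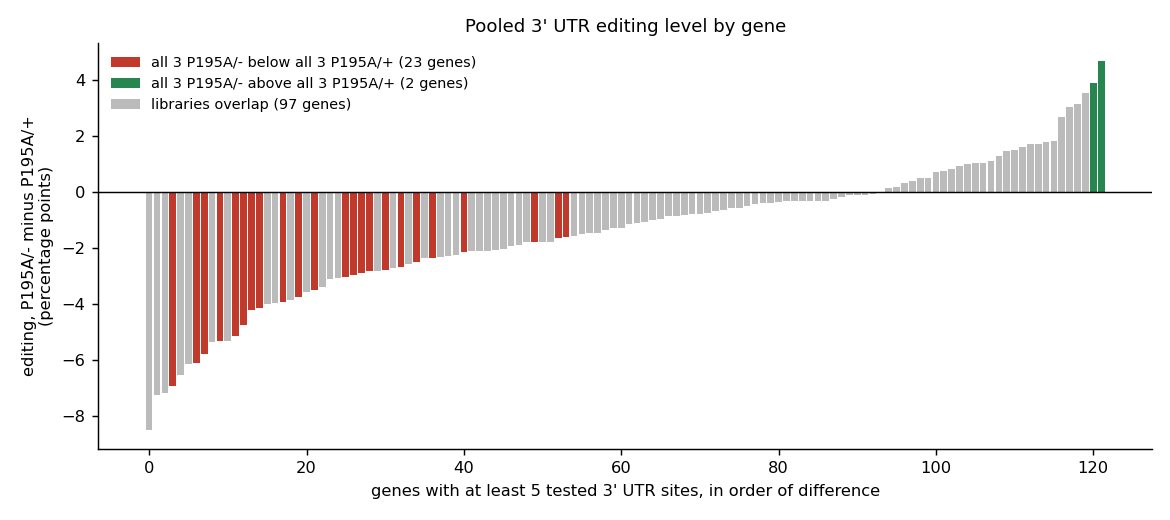
Difference of pooled 3′ UTR editing level, P195A/- minus P195A/+, in percentage points (y axis) for 122 genes with at least 5 tested sites, ordered by the difference (x axis, rank). Red bars are the 23 genes with every P195A/- library below every P195A/+ library, green bars the 2 genes with the reverse and grey bars genes whose libraries overlap. Bars below 0 make up 93 of the 122.

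P195A/- animals were lighter at weaning. They weighed 7.9, 8.2 and 8.4 g at 20 days, and P195A/+ animals weighed 9, 10.3 and 10.7 g at 21 days. The groups did not overlap, the difference was -1.83 g (8.17 ± 0.25 g in P195A/- and 10 ± 0.89 g in P195A/+, SD, n = 3 each), and the exact two-sided permutation p was 0.1, the smallest possible. Divided by weaning age, the values were 0.408 ± 0.013 g per day in P195A/- and 0.476 ± 0.042 g per day in P195A/+, with the same p. Weaning age differs between the groups throughout, so age and genotype cannot be told apart in the weights.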

How the data were processed

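Members, gene lists, naming rules and tests were chosen with earlier results of these data known. For 13 libraries the authors deposited a gene table of estimated counts. The submitters' processing notes name fastp 0.19.5, Salmon, edgeR and the build mm10. The other tables they deposited hold, per the file headers, the counts of each base at known editing sites from JACUSA2 2.0.0-RC5, stranded, duplicates left out, minimum coverage 3 and depth capped at 3000. For aligner, Salmon index and annotation, the sources used here give none. Of 54307 entries, 51482 had a symbol by gene ID (99.32% of counts). Positions are those of GENCODE M21.

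After rounding, the estimated counts entered edgeR 4.0.16 under R 4.3.3 (robust quasi-likelihood, TMM, filterByExpr), all 13 libraries sharing 1 estimate of spread. This left 19962 genes, with a biological coefficient of variation of 19.1%. Editing used 45299 sites present in both tables with wild type (45163 with A on the transcript strand), and the same test on edited and unedited reads with library effects. Permutation tests were exact and two-sided, the smaller tail doubled. Scripts were tested on simulated data. Alternatives used limma 3.58.1 and DESeq2 1.42.0. Named genes follow a written rule (Adar family, passing genes, a list of interferon, stress and cell type genes, and the 3 members with the smallest p of each list described), and sites the 10 smallest p and the most-read coding site of 20 genes. Some genes of the rule are not reported here. Mx1, Cmpk2, Herc6, Trim25, Oas1g and the genes of the 3′ UTR pooling were named after their values were seen. The counts of members in each setting, the most edited coding sites, the bins of abundance, the 3′ UTR pooling and the summed copies were also added after seeing the data. Labels give each library as a separate animal.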

Additional observations from a re-analysis of the deposited data

How the results depend on the processing

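Against 6 passing genes, the count was 49 with no filter on low counts, 289 with DESeq2 and 15 with a replicate block. It was 3 to 8 when 1 library was left out, with 3 without P195A/- replicate 3. In a fit of only the 6 libraries 4 genes passed, 4 higher and 0 lower, and under the other settings 6 to 7. Against 0 passing sites, 3 passed at no fewer than 20 reads, and 0 to 1 when 1 library was left out. The causes of these changes were not tested. Depth per site limits what could be seen at most editing sites, and with 3 animals a group the permutation tests cannot pass 0.05. The difference in mean editing stayed between -1.43 and -0.833 percentage points with 1 library left out and between -1.2 and -1.08 otherwise, and that in weight between -2.33 and -1.48 g.

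Replicate numbers do not pair the animals: same-numbered libraries of P195A/- and P195A/+ had deviations correlated at 0.0231, 0.00963 and 0.14. With the replicate block 15 genes passed (11 higher and 4 lower) and 0 sites. Ifi44 (edgeR adjusted p = 0.0441) and Fcrls (edgeR adjusted p = 0.0395) then passed, as did Rps3a1 (edgeR adjusted p = 0.0181), and Capza1 (edgeR adjusted p = 0.0647) and Gm3608 (edgeR adjusted p = 0.0735) no longer did. Blocked, mean editing differed by -1.13 percentage points and weight by -1.83 g, each with an exact sign-flip p of 0.25, the smallest that 3 pairs allow. Not every library correlated best with its own number.

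With 1 library left out, list medians (log2) lay between 0.49 and 0.733 for interferon-stimulated genes, 0.107 and 0.201 for double-stranded RNA sensing (0.145 with no filter), 0.0432 and 0.184 for interferon signalling, 0.0382 and 0.211 for MHC class I, -0.17 and -0.0438 for the ZBP1 list, -0.217 and -0.0518 for eIF2 genes, -0.14 and 0.0295 for editing enzymes, 0.308 and 1.08 for mitochondrial genes, -0.0712 and 0.103 for oligodendrocyte precursors, -0.154 and 0.000978 for endothelium, -0.0383 and 0.088 for the olfactory bulb, and -0.478 and 0.165 for pituitary and hypothalamus.

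Some genes that did not pass turned sign. With 1 library left out, log2 fold changes ran from -0.137 to 0.0295 for Adarb1, -0.322 to 0.00722 for Mavs, -0.113 to 0.694 for Trib3, -0.131 to 0.0557 for Aqp4, -0.0642 to 0.14 for Cx3cr1, -0.137 to 1.01 for Mt1 and -6.1 to 2.28 for Gh. Aqp4 was at 0.0125 with library size alone, 0.000731 with limma-voom and 0.000103 with the replicate block. Trib3 was at -0.147 with limma-voom and -0.0438 with sex as a covariate. Log2 odds ratios of coding sites ran from -1.03 to 0.077 for Grik2, -0.105 to 0.422 for Cyfip2, -0.0848 to 0.104 for Cadps, -0.589 to 0.0324 for Cacna1d, -0.272 to 0.634 for Cog3, -0.233 to 0.711 for Azin1, -0.239 to 0.714 for Grik1, -0.222 to 0.0963 for Tmem63b, -0.237 to 0.0308 for Unc80, -0.245 to 0.282 for Gria2, -0.463 to 0.454 for Gria4, -1.27 to 1.66 for Neil1 and -0.132 to 0.288 for Htr2c.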
